A study of Mus musculus with 6 samples.

Results

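Mitochondrial ribosomal proteins are encoded in the nucleus, made in the cytosol and imported into mitochondria, where they assemble with ribosomal RNAs of the mitochondrial genome into the mitoribosome. This ribosome translates the proteins that mitochondrial DNA encodes, which are core parts of the respiratory chain and of ATP synthase, and an oxidative muscle such as the soleus depends on it. A gene was taken as a member when an array feature carried a single symbol made of Mrpl or Mrps, a number and at most 1 further letter, and the feature with the highest mean signal stood for the gene. The rule found 74 members among 30142 genes named by a single-symbol feature. Of these, 46 had an Mrpl symbol, for the large subunit, and 28 an Mrps symbol, for the small subunit. Each member had 1 feature, and all 74 passed the filter on low signal. Another 4 features carried a mitoribosomal symbol together with other symbols and were not used here.

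Soleus, a slow calf muscle, came from 6 male mice aged 39 to 41 weeks and was hybridised to whole-transcript arrays, 1 array per mouse. The 3 Control mice were wild type by their label and littermates by the series title. The 3 cKO mice were labelled DMP1 Cre Mbtps1 knockout, so that a Cre recombinase under DMP1 control deleted Mbtps1, the gene of site-1 protease. Dmp1 is best known as a gene of osteocytes, and no source used here names the soleus cells in which this Cre acts.

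The values were read as log2 signals, on which 1 unit is a doubling, and every difference is cKO minus Control. Where 3 values are given for a group they follow replicates 1 to 3. Over all 33334 features tested the median difference was 0.07 as deposited, -0.0038 after quantile normalization and 0.02 after each array was centred on its own median. The array with the highest median was cKO 1, at 4.37. The mouse numbers in the labels fell in a low range (715, 716 and 733, for Control 1, Control 2 and cKO 1) and a high range (776, 779 and 780, for Control 3, cKO 2 and cKO 3), and the labels do not say what a range stands for. Mbtps1 was at 7.39, 7.05 and 7.24 in Control and 7.77, 7.44 and 7.11 in cKO. Its difference of 0.21 (SE 0.21, limma adjusted p = 0.999) does not check the labels: no source used here places the feature inside or outside the deleted exons. The muscle actin Acta1 and the myosin Myh2 stood at the ceiling of the scale on every array, and slow myosin Myh7 lay between 19.20 and 19.38. Tendon markers were higher in cKO for 11 of 11 tested genes, with list means of 6.03 to 6.76 in Control and 7.23 to 7.71 in cKO, and 6 of them were at an unadjusted p under 0.05. Of all features 65.8% were higher in cKO, and 4.5% were at that p in either direction. In other lists 9 of 10 macrophage markers (median 0.32) and 6 of 8 adipocyte markers (median 0.45, 4 at that p) were higher. So were 7 of 10 fibroblast markers (median 0.48) and 7 of 9 smooth muscle and pericyte markers (median 0.30, 2 at that p). Of the endothelial markers 6 of 9 were lower (median -0.17). The endothelial median was -0.31 among low-numbered mice and 0.30 among high-numbered mice, where 8 of 9 were higher. The fibroblast median turned too, from 0.53 to -0.14, with 4 of 10 higher among high-numbered mice. In the same order the medians were 1.23 and 0.51 for tendon and 0.445 and 0.12 for macrophage markers. They were 0.58 and 0.17 for adipocyte markers and 0.37 and 0.28 for smooth muscle and pericyte markers, beside 0.26 and -0.04 for all features. In these lists 0 genes passed limma's adjusted p of 0.05, and their part in the values below was not tested. In whole muscle, fewer cells of a type and less RNA per cell cannot be told apart.

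Promoters of the members are given here because nuclear genes for mitochondrial proteins are known to be driven by the factors NRF1, GABPA (also called NRF-2, of the ETS family) and YY1. RefSeq promoter windows on GRCm38.p6, from 250 bases before to 50 bases after a start, were held for 65 of the 74 members, with 71 windows in all. Letters were searched on both strands, and a match is a description of the sequence and not a site of binding. The ETS letters CCGGAAG were in 24 of 71 windows (33.8%), against 15.3% of the windows of genes tested on the arrays and 8.86% of all 32851 windows. The NRF1 core letters TGCGCA were in 20 windows (28.2%, against 11.9% and 7.76%). The YY1 letters AAGATGGCG were in 8 windows (11.3%, against 2.58% and 1.4%). The GC box GGGCGG (53.5%, against 56.6% and 35.7%) and the TATA box TATAAA (7.04%, against 8.74% and 13.6%) were nearer to the genes tested. Median GC content was 58.3% in the member windows, 59.7% in those of genes tested and 52.7% in all, so the members were not richer in G and C than other genes measured in this muscle. Another mitochondrial set was listed by Nduf symbols alone as the nuclear subunits of respiratory complex I. It had the NRF1 core in 31.2% and the YY1 letters in 15.6% of 32 windows, but the ETS letters in 12.5%. Cytosolic ribosomal proteins had the ETS letters in 36.6% of 41 windows and the YY1 letters in 0 of 41.

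**Figure D1:**
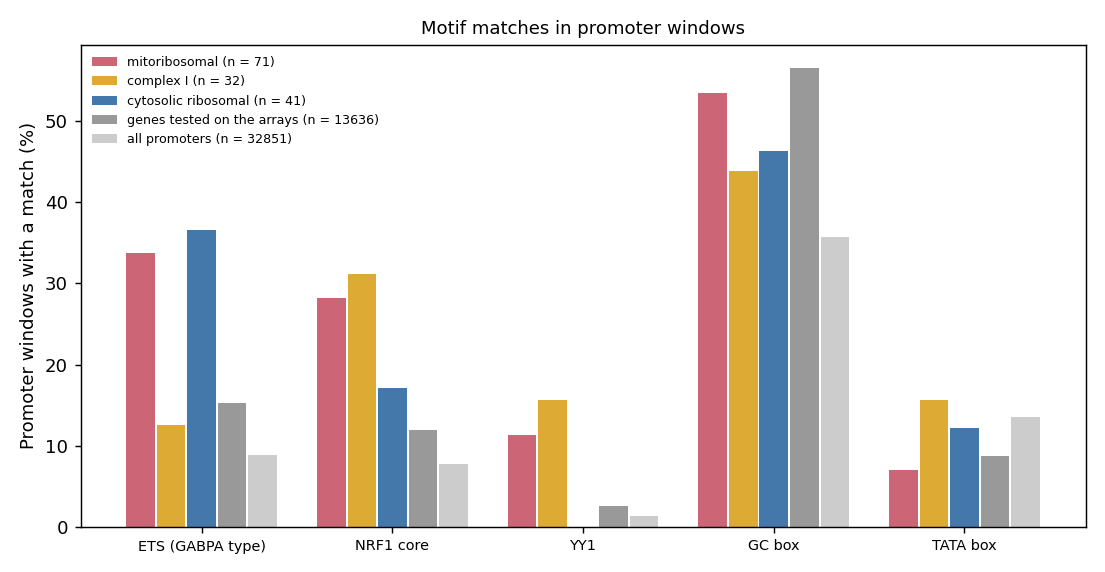
Share of RefSeq promoter windows (y axis, percent) that hold each motif on either strand, for mitoribosomal, complex I and cytosolic ribosomal genes, genes tested on the arrays and all windows. The mitoribosomal bars stand above both backgrounds for the ETS, NRF1 and YY1 letters, at 33.8% for ETS against 8.86% of all windows, and not for the GC box or the TATA box.

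Below are the 100 bases before the start of each of 4 members described further on, chosen because the stretch held a whole match and no other RefSeq gene. Capitals mark the ETS letters (read as CCGGAAG) and the NRF1 core (TGCGCA), and sequences run 5′ to 3′ on the strand of the gene. Mrpl3 lies at chr9:105053168-105053267 on the plus strand, Mrps18a at chr17:46110904-46111003 on the plus strand, Mrps16 at chr14:20393635-20393734 on the minus strand and Mrps22 at chr9:98601680-98601779 on the minus strand, all on GRCm38.p6.
Mrpl3: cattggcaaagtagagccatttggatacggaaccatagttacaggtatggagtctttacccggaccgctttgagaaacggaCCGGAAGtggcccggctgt
Mrps18a: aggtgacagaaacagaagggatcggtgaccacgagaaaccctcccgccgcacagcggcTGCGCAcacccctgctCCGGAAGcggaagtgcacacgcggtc
Mrps16: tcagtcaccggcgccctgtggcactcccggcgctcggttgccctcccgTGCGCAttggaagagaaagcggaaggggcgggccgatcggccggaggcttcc
Mrps22: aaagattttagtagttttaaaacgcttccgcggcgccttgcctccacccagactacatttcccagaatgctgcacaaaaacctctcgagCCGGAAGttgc
The matches begin 19 bases before the start in Mrpl3, 26 (ETS) and 42 (NRF1 core) in Mrps18a, 52 in Mrps16 and 11 in Mrps22. In Mrps18a both motifs lie close together, and its window held the YY1 letters 12 bases into the transcript as well.

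No mitoribosomal gene passed the test between the genotypes. By limma 0 of 74 members passed an adjusted p of 0.05, against 0.0% of all features. At an unadjusted p under 0.05 there were 2 members, against 4.5% of all features. Both, Mrpl49 and Mrps18b, were higher in cKO, a direction that held 3.7% of all features. Differences were small: 55 of the 74 lay within 0.25 log2 units of 0, 6 were higher by 0.25 or more and 13 were lower by 0.25 or more. They ran from -0.55 for Mrpl3 to 0.52 for Mrpl49. The count at an unadjusted p under 0.05 moved with the setting. It was 0 after quantile normalization (4.54% of all features), 0 after centring (3.98%), 0 with the replicate number as a block (3.97%), 1 with no filter (2.68%) and 6 with array weights (12.8%). It was 0, 2 and 5 without Control 1, 2 and 3 in turn (3.11%, 4.28% and 9.43%) and 1, 0 and 0 without cKO 1, 2 and 3 (6.22%, 3.13% and 2.94%). The 95% interval of a member reached 0.49 log2 units to either side in the median, with a range of 0.32 to 1.004. For 66 members the interval lay within 1 log2 unit of 0, and for the other 8 (Mrpl3, Mrpl9, Mrpl19, Mrpl22, Mrpl46, Mrpl49, Mrpl54 and Mrps9) it reached further.

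**Figure D2:**
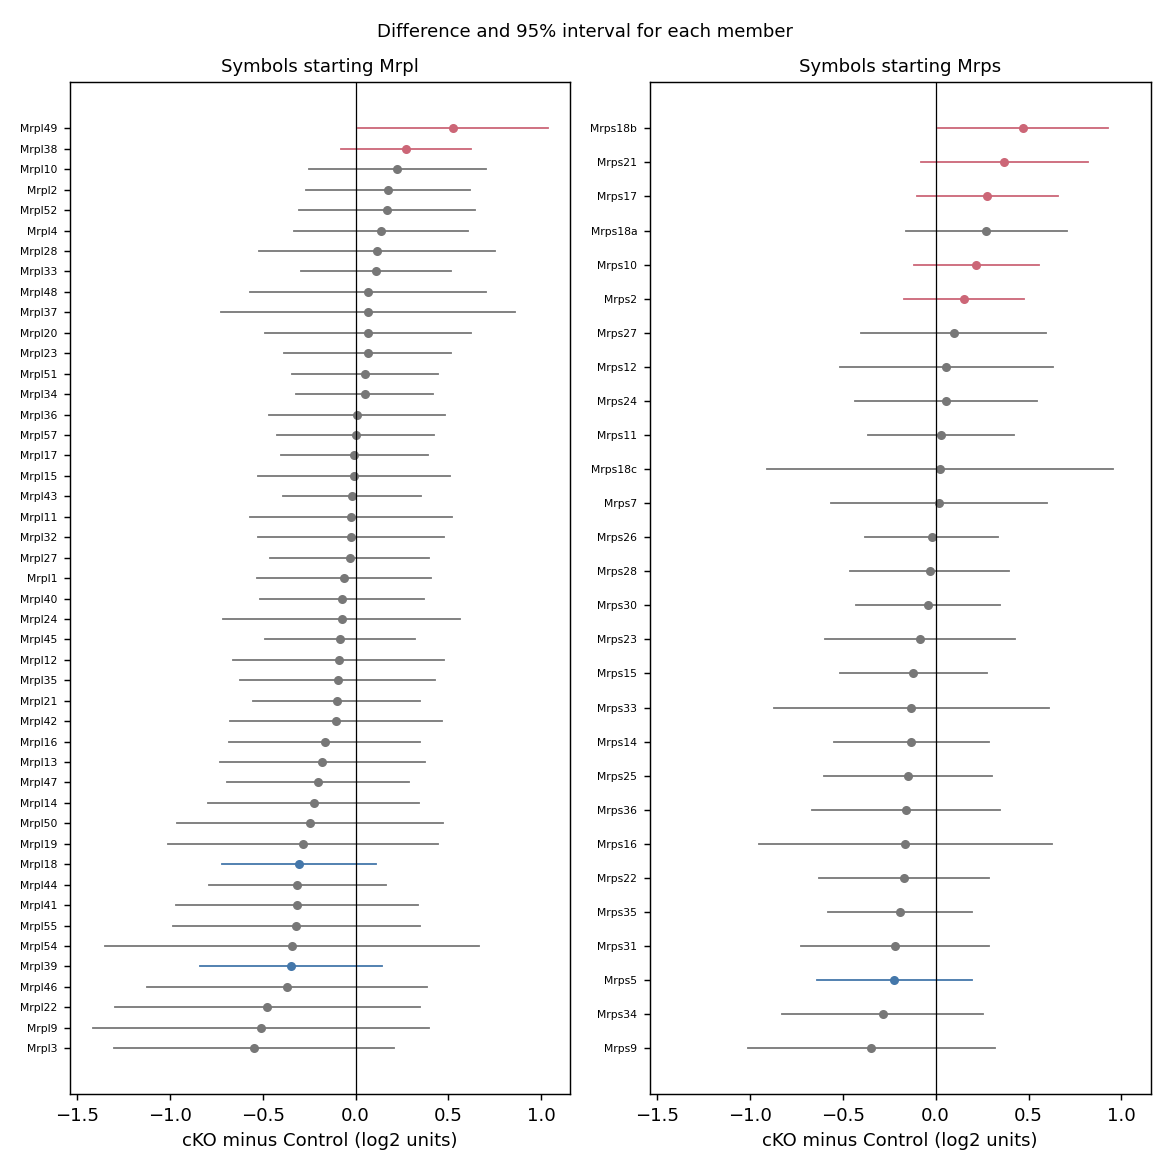
Difference between cKO and Control (x axis, log2 units) for each of the 74 members, as a point with its 95% interval from limma, with Mrpl symbols on the left and Mrps symbols on the right. Red marks the 7 members whose 3 cKO arrays all lie above the Control arrays and blue the 3 that lie below, and every interval except those of Mrpl49 and Mrps18b includes 0.

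As a group the members leaned lower, by little. The median difference was -0.05, with 28 members higher and 46 lower, beside 0.07 for all features, of which 65.8% were higher. After quantile normalization the median was -0.15 with 12 higher, beside -0.0038 for all features, and after median centring it was -0.11 with 19 higher. The Mrpl symbols had a median of -0.07 (16 higher, 30 lower) and the Mrps symbols one of -0.04 (12 higher, 16 lower). In structures of the mitoribosome, Mrps18a and Mrps30 sit in the large subunit, and Mrps36 is now known as a part of the 2-oxoglutarate dehydrogenase complex. With those moved or left out, the medians were -0.05 for 48 large subunit and -0.03 for 25 small subunit proteins. Proteins with a counterpart in the bacterial ribosome had a median of -0.02 (20 of 46 higher), and those found only in mitochondria one of -0.08 (8 of 27 higher). The difference between these classes was not tested.

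The list median depended on single arrays. Over the 17 fits, which changed the scaling, the filter, the variance model, the block or the arrays, 24 members were lower and 11 higher every time. The others turned or were not tested in every fit, since the stricter filter kept 70 members. The fits share most arrays, so such agreement is partly built in, and no share over all features was computed for it. Some members lower every time, such as Mrpl3 and Mrps34, were higher in cKO among high-numbered mice. Averaged over the 74 members, the Control arrays stood at 8.23, 8.56 and 8.11 and the cKO arrays at 8.38, 8.23 and 8.12. The Control mean was 8.30 ± 0.23 (SD, n = 3), and that of cKO was 8.24 ± 0.13 (SD, n = 3). Control 2 was the highest array, and the other Control arrays lay within the range of the cKO arrays or just below it. Without Control 2 the median difference was 0.06, with 44 of 74 higher, and without cKO 1 it was -0.15, with 17 higher. With the number range as a block it was 0.0056, with 38 higher. The median was 0.0052 among low-numbered mice, beside 0.26 for all features, and 0.07 among high-numbered mice, beside -0.04. The sign was the same in both ranges for 33 of 74 members, beside 15300 of all 33334 features, a similar share. Of these members, 24 were higher and 9 lower in both ranges, and the other 41 had opposite signs.

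Control 2 carried the most of this RNA set. Among the 74 members 41 had their highest signal on Control 2 (55.4%), where 13.2% of all features did. The second array by this count was cKO 1, with 23 members (31.1%), which was the highest array for 46.4% of all features. Control 2 lay above the mean of Control 1 and Control 3 for 66 of 74 members, by a median of 0.39 log2 units, where the median over all features was -0.03. After quantile normalization 44 members were highest on Control 2 (59.5%, beside 21.9% of all features). The lowest array was Control 3 for 27 members (36.5%, beside 15.3% of all features) and cKO 3 for 25 (33.8%, beside 19.7%). Mrpl54, a large subunit protein found only in mitochondria, stood furthest out, at 6.27, 7.64 and 5.97 in Control and 6.45, 6.18 and 6.21 in cKO. Control 2 also stood highest in 24 of 33 complex I genes as deposited. After quantile normalization Control 1 was highest for 19 of these and Control 2 for 12. Among cytosolic ribosomal proteins cKO 1 was highest for 19 of 39 genes and Control 2 for 15 as deposited. After quantile normalization Control 2 was highest for 18 of them and cKO 1 for 7. The high signal of the members on Control 2 was noticed in the data, and its source was not tested.

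**Figure D3:**
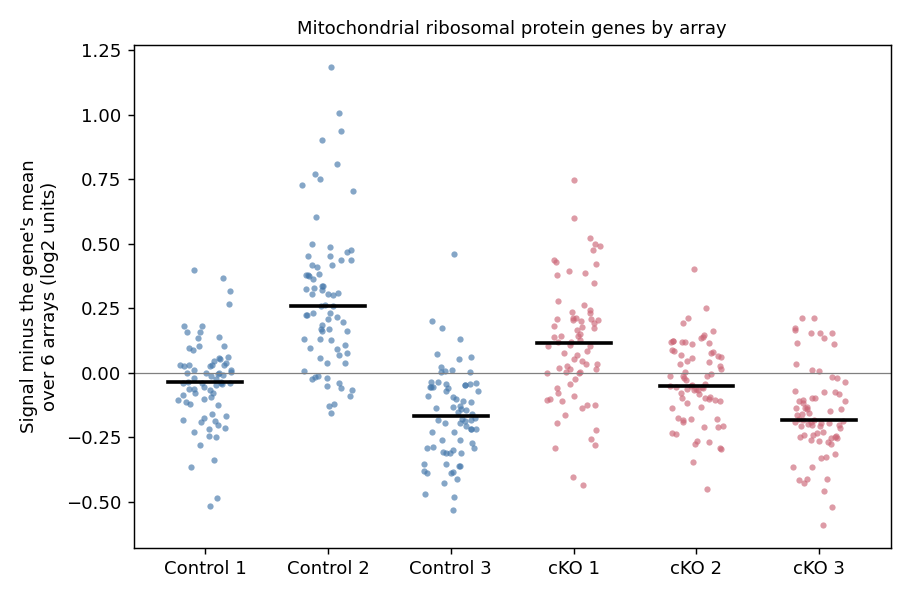
Signal of each of the 74 members on each array after subtraction of the gene's own mean over the 6 arrays (y axis, log2 units), with a black bar at the median. The Control medians are -0.03, 0.26 and -0.17 and the cKO medians 0.11, -0.05 and -0.18, and the groups overlap, with Control 2 the highest array and cKO 3 the lowest.

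For 10 members the 3 cKO arrays did not overlap the 3 Control arrays, with 7 higher and 3 lower, beside 11.0% of all features (8.95% higher and 2.05% lower). The share of members was 10 of 74, close to this background. After quantile normalization 2 members were higher and 5 lower without overlap, beside 9.97% of all features (4.99% higher and 4.97% lower). After centring 3 were higher and 5 lower, beside 9.17% (5.15% and 4.03%). Of the 10, 2 of the higher and 3 of the lower ones stayed apart after quantile normalization, and 3 and 2 after centring. With 1 array left out the counts were 11, 15 and 18 without Control 1, 2 and 3 (17.8%, 19.9% and 26.7% of all features) and 22, 13 and 12 without cKO 1, 2 and 3 (25.4%, 18.1% and 17.4%).

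Of the 7 higher ones, 5 had an Mrps symbol and 2 an Mrpl symbol. With 7 of 74 members beside 8.95% of all features, no subunit pattern is read from them. Mrps18b, a paralog of the S18 family that sits in the small subunit, was at 8.90, 9.10 and 8.65 in Control and 9.50, 9.28 and 9.29 in cKO. All cKO arrays lay above all Control arrays, by a difference of 0.47 (SE 0.19, limma adjusted p = 0.999), and the arrays stayed apart under both other scalings. Its difference was 0.50 among low-numbered and 0.64 among high-numbered mice. Mrpl49, a large subunit protein found only in mitochondria, was at 7.76, 8.30 and 7.89 in Control and 8.74, 8.33 and 8.46 in cKO. Here the gap was narrow, since Control 2 and cKO 2 differed by little, and the groups overlapped after quantile normalization but not after centring. The difference was 0.52 (SE 0.21, limma adjusted p = 0.999), or 0.71 among low-numbered and 0.50 among high-numbered mice. Mrps21, the counterpart of bacterial S21, was at 9.43, 9.59 and 9.56 in Control and 10.13, 9.83 and 9.72 in cKO, a difference of 0.37 (SE 0.19). It stayed separated under both other scalings, and its highest value was on cKO 1. Mrps17, a counterpart of a bacterial small subunit protein, was at 7.76, 8.05 and 7.81 in Control and 8.14, 8.13 and 8.19 in cKO (difference 0.28, SE 0.16). The cKO arrays were close to each other, and Control 2 came close to them. Mrpl38, of the central protuberance of the large subunit, differed by 0.27 (SE 0.15), Mrps10, of the small subunit head, by 0.22 (SE 0.14), and Mrps2 by 0.15 (SE 0.14). For these last 3 and Mrps17 the groups overlapped after quantile normalization and after centring.

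The lower ones were Mrpl18, Mrpl39 and Mrps5. Mrpl18, the counterpart of the bacterial protein that binds 5S RNA, was at 9.82, 9.71 and 9.84 in Control and 9.51, 9.62 and 9.32 in cKO. The difference was -0.30 (SE 0.17, limma adjusted p = 0.999), and it was -0.25 among low-numbered and -0.37 among high-numbered mice. Mrpl39, a large subunit protein found only in mitochondria, was at 10.67, 11.07 and 10.64 in Control and 10.48, 10.56 and 10.29 in cKO (difference -0.35, SE 0.20). Mrps5, a small subunit protein near the path of the messenger RNA, was at 8.83, 9.16 and 8.84 in Control and 8.75, 8.76 and 8.65 in cKO (difference -0.22, SE 0.17). In both genes Control 2 was highest, and the other Control arrays lay just above the cKO arrays. Mrpl18 and Mrpl39 stayed separated under both other scalings, and Mrps5 after quantile normalization only.

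**Figure D4:**
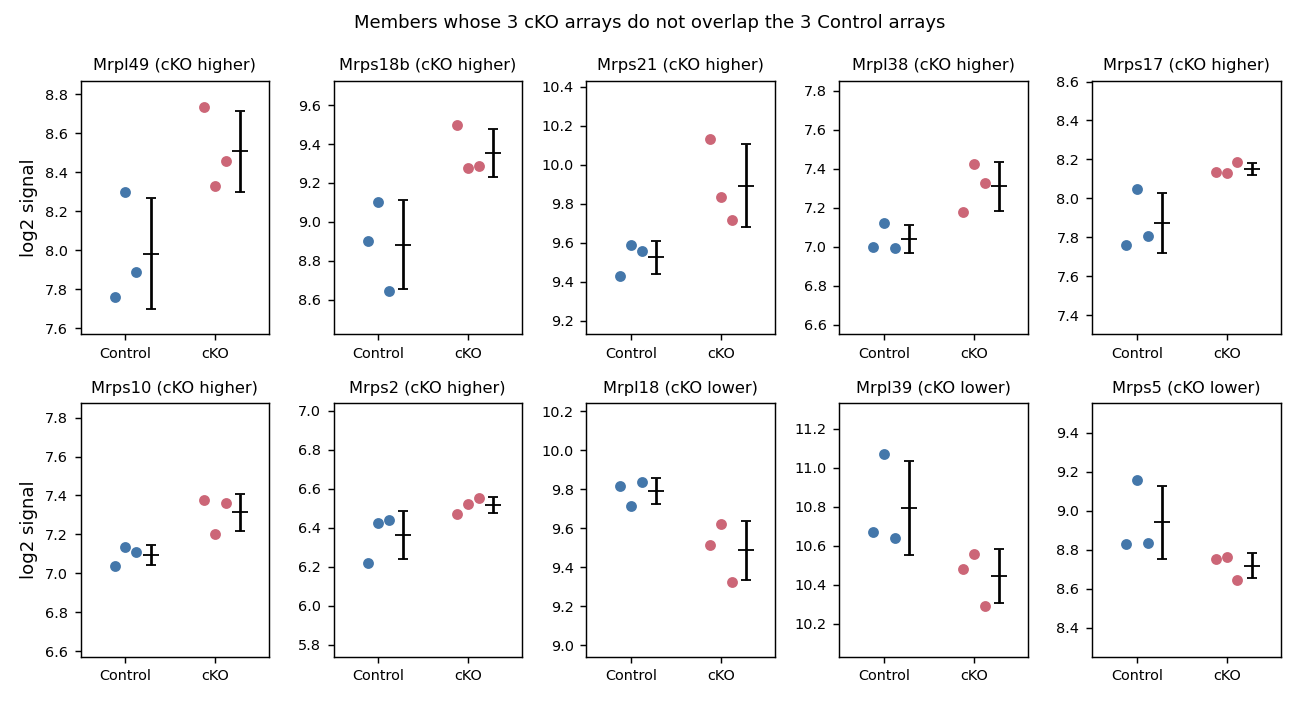
Signal on each array (y axis, log2, each panel spanning the same 1.3 units) for the 10 members whose groups do not overlap, with Control in blue and cKO in red, and the mean and SD of 3 arrays as a black bar. In 7 panels the cKO points lie above the Control points and in 3 below.

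The paralogs of the S18 family did not share 1 pattern. Mrps18a was at 7.87, 8.23 and 7.79 in Control and 8.27, 8.31 and 8.13 in cKO, so that Control 2 lay among the cKO arrays (difference 0.27, SE 0.18). Mrps18c, the nearest counterpart of bacterial S18, was at 9.33, 9.66 and 8.71 in Control and 9.99, 8.94 and 8.82 in cKO (difference 0.02, SE 0.39). Its arrays spread widely in both groups, and its highest value was on cKO 1. The differences between the 3 paralogs were not tested.

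Among large subunit proteins, Mrpl3, which lies near the site of peptide bond formation, had the lowest difference of all members. It was at 10.15, 10.56 and 9.36 in Control and 9.56, 9.46 and 9.42 in cKO. Control 1 and Control 2 were high and Control 3 was below every cKO array, so the difference of -0.55 (SE 0.32) was -0.80 among low-numbered and 0.08 among high-numbered mice. Mrpl44, a protein with a ribonuclease III fold, was at 6.68, 6.85 and 6.18 in Control and 6.19, 6.31 and 6.27 in cKO (difference -0.31, SE 0.20). Mrpl41, found only in mitochondria, was at 5.15, 5.75 and 4.63 in Control and 4.93, 4.84 and 4.82 in cKO (difference -0.32, SE 0.27). In both, as in Mrpl3, Control 3 was the lowest array. Without Control 3, 5 of 74 members were at an unadjusted p under 0.05, all lower, where 1.56% of all features were lower at that p. They were Mrpl3 at -0.88, Mrpl41 at -0.59, Mrpl44 at -0.51, Mrpl55 at -0.58 and Mrps34 at -0.49, chosen here after their values were seen, and 0 members passed limma's adjusted p of 0.05 without it. Mrpl12, of the ribosomal stalk and also known to bind the mitochondrial RNA polymerase, was at 8.07, 8.64 and 7.84 in Control and 8.14, 8.18 and 7.96 in cKO. Its groups overlapped fully (difference -0.09, SE 0.24), and its sign turned without Control 2. Mrpl11, at the base of the stalk, differed by -0.02 (SE 0.23), a sign that turned too.

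In the small subunit, Mrps34, a protein found only in mitochondria, was at 9.13, 9.20 and 8.54 in Control and 8.56, 8.79 and 8.66 in cKO. Control 3 was again the lowest array, and the difference of -0.28 (SE 0.23) was -0.61 among low-numbered and 0.19 among high-numbered mice. Mrps16 was at 6.90, 7.78 and 6.60 in Control and 7.06, 7.13 and 6.60 in cKO (difference -0.16, SE 0.33). The groups overlapped, with Control 2 highest and the lowest arrays of both groups nearly equal. Mrps22, known like Mrps16 and Mrps34 from inherited mitochondrial disease, was at 8.41, 8.80 and 8.55 in Control and 8.61, 8.41 and 8.24 in cKO (difference -0.17, SE 0.19). Mrps12, of the decoding site, differed by 0.06 (SE 0.24) and Mrps7, of the head, by 0.02 (SE 0.24), and in each the sign turned after quantile normalization and centring. Mrps30 differed by -0.04 (SE 0.16). For Mrps16, Mrps12, Mrps7 and Mrps30 no direction can be given, since the sign turned with an array left out. Mrps34 and Mrps22 were lower in all 17 fits, though neither passed the test.

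Sequence class and difference were set side by side. Members with the ETS letters in a window (24 genes) had a median difference of -0.0029 with 12 higher, and those without (41 genes) one of -0.08 with 14 higher. For the NRF1 core the medians were -0.0075 (19 genes) and -0.07 (46 genes). These are descriptions and were not tested. Of the 4 genes with printed promoters, Mrpl3 and Mrps22 were lower and Mrps18a higher in all 17 fits, the sign of Mrps16 turned, and none passed the test.

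Some members start head to head with another gene. Within 1000 bases and on the opposite strand, 25 of the 65 members with a promoter window had such a neighbour. The share over all genes was not computed, so this is not given as a trait of the members. Both genes were tested in 20 pairs. Their differences had the same sign in 10 of 20 pairs, 6 higher and 4 lower. Neighbours were matched to array features by symbol alone, so a feature can lie elsewhere in the genome, as for Fau below. Mrps12 and Sars2, the mitochondrial seryl-tRNA synthetase, start 147 bases apart. Sars2 was at 6.20, 6.07 and 6.17 in Control and 6.83, 6.59 and 6.70 in cKO, with every cKO array above every Control array (difference 0.56, SE 0.14, limma adjusted p = 0.999), while Mrps12 was at 7.52, 7.36 and 7.29 in Control and 7.94, 7.18 and 7.22 in cKO. Mrpl49 starts 192 bases from Fau, which encodes a cytosolic ribosomal protein. The feature with the symbol Fau was at 11.78, 12.61 and 11.78 in Control and 10.53, 12.07 and 12.02 in cKO, with cKO 1 far below the rest (difference -0.51, SE 0.48). By its identifier this feature lies on another chromosome than Mrpl49, so its values cannot be taken as those of the neighbour. Mrpl46 and Mrps11 are members that share a start region, 42 bases apart, and differed by -0.37 (SE 0.32) and 0.03 (SE 0.16). Mrpl46 was at 7.245, 8.306 and 7.22 in Control and 7.114, 7.394 and 7.154 in cKO, so its difference came mostly from Control 2. Without that array the differences were -0.012 for Mrpl46 and 0.12 for Mrps11. These 3 pairs were chosen after their values were seen.

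Other genes of mitochondrial translation were described by lists. For these and the lists after them, 65.8% of all features were higher, 4.5% were at an unadjusted p under 0.05 and 11.0% had groups without overlap. Mitoribosomal proteins that the array annotation lists under other symbols had 2 of 5 higher and a median of -0.06. Mrpl57, which was on that list too, is counted among the 74 members only, and Mrpl58 is in it because the annotation calls it Ict1. The smallest p belonged to Gadd45gip1, of the large subunit, at -0.42 (SE 0.35) and the small subunit protein Dap3 at -0.24 (SE 0.22). Factors that assemble the mitoribosome or modify its RNA had 20 of 23 higher and a median of 0.12, which was -0.0011 with 11 of 23 higher after quantile normalization. In this list 1 gene was at an unadjusted p under 0.05. It was Mpv17l2, a protein of mitoribosome assembly, at 6.19, 6.50 and 6.30 in Control and 6.96, 6.85 and 6.96 in cKO. All cKO arrays were higher, by 0.60 (SE 0.15, limma adjusted p = 0.999), and the difference was 0.61 in both ranges of mouse numbers. Nsun4, a methyltransferase of the small ribosomal RNA, differed by 0.28 (SE 0.12) without overlap.

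Mitochondrial translation factors had 5 of 15 higher and a median of -0.03. Oxa1l, which inserts newly made proteins into the inner membrane, was at 12.11, 12.41 and 12.48 in Control and 12.89, 12.79 and 12.77 in cKO (difference 0.48, SE 0.19), with no overlap, and the elongation GTPase Guf1 differed by -0.36 (SE 0.19). Mitochondrial aminoacyl-tRNA synthetases had 11 of 16 higher (68.8%, near the 65.8% of all features) and a median of 0.02, or -0.08 after quantile normalization. Sars2 and Wars2, the enzyme for tryptophan, had the smallest p, and Wars2 differed by 0.44 (SE 0.13) with no overlap. Genes of mitochondrial DNA replication and transcription had 6 of 10 higher (60.0%) and a median of 0.03, or 3 of 10 and -0.08 after quantile normalization. In this list the single-strand binding protein Ssbp1 was at -0.31 (SE 0.16) and the RNA polymerase Polrmt at 0.14 (SE 0.12). In each of these 3 lists 0 genes passed limma's adjusted p of 0.05, and 1, 2 and 0 were at an unadjusted p under 0.05, beside 4.5% of all features.

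Transcription factors of mitochondrial genes did not move together. Yy1 was at 9.80, 9.81 and 9.74 in Control and 8.78, 9.23 and 9.22 in cKO. All cKO arrays were lower, by -0.71 (SE 0.19, limma adjusted p = 0.999), with -1.03 among low-numbered and -0.51 among high-numbered mice. Myc was at 5.96, 5.85 and 5.63 in Control and 6.54, 6.93 and 6.35 in cKO, with all cKO arrays higher, by 0.79 (SE 0.19). Nrf1 differed by 0.17 (SE 0.13), Gabpa by -0.31 (SE 0.195) and the coactivator Ppargc1a by 0.24 (SE 0.95), a gene with a wide spread between mice. Nrf1, Gabpa and Ppargc1a are named beyond the rule, with their values known. The list had 7 of 11 higher (63.6%, near the 65.8% of all features), with 1 gene at an unadjusted p under 0.05 in each direction and 0 past the adjusted threshold.

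Transcripts of the mitochondrial genome, which include the messages the mitoribosome translates and its own RNA, could hardly be compared. Of 6 features named for such genes, 3 (mt-Rnr1, COX1 and ND3) stood at the ceiling of the scale on every array. COX2 lay 3.75 log2 units below the ceiling on every array, so that its values moved with the ceiling alone. No difference is given for these 4 features. ND2 was at 19.16, 19.22 and 19.16 in Control and 19.01, 19.13 and 19.17 in cKO, close to the ceiling, and differed by -0.08 (SE 0.14). ND6 was at 17.38, 16.96 and 16.19 in Control and 17.70, 16.19 and 15.90 in cKO (difference -0.24, SE 0.53), with the low-numbered mice high in both genotypes.

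Genes listed by their Nduf symbols alone as nuclear subunits of complex I were lower for 29 of 33. Their median was -0.16, with 1 gene at an unadjusted p under 0.05, Ndufs1 at -0.48 (SE 0.20). Ndufa5 had the next smallest p, at -0.65 (SE 0.29). The median was -0.24 after quantile normalization (31 of 33 lower), -0.22 after centring and -0.29 without cKO 1. Without Control 2 it was -0.03 with 14 of 33 higher, and among high-numbered mice it was 0.01. Cytosolic ribosomal proteins had 24 of 39 higher (61.5%, beside 65.8% of all features) and a median of 0.07. The median was -0.02 with 16 higher after quantile normalization and -0.06 with 16 higher without cKO 1, so no direction can be given. In this list 0 genes were at an unadjusted p under 0.05. The smallest p belonged to Rpl10a at 0.37 (SE 0.18) and Rpl41 at 0.48 (SE 0.25). Features of this list were taken by symbol alone, and their places in the genome were not checked gene by gene. That of Fau lies on another chromosome than the gene itself, and others, that of Rpl41 among them, may too. The values of this list may therefore be in part those of other loci. The mitoribosomal median of -0.05 lay between those of these 2 sets, and no test set the lists against each other.

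**Figure D5:**
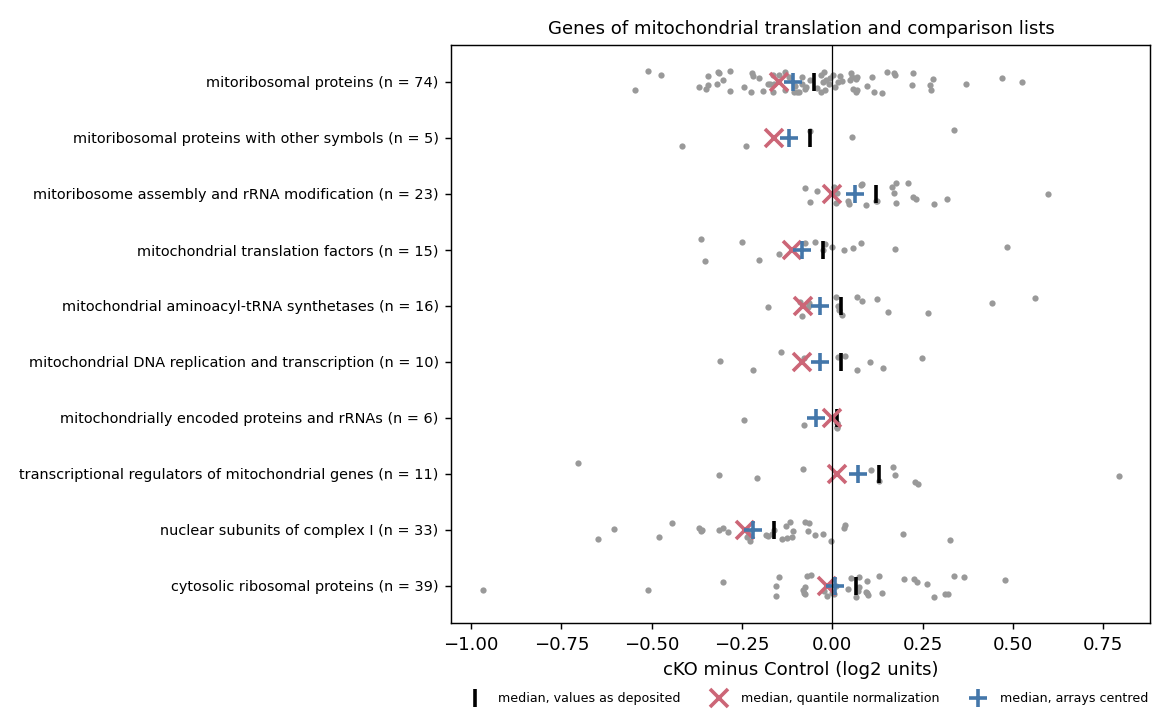
Difference between cKO and Control (x axis, log2 units) for each tested gene (grey points) of the mitoribosomal set and 9 other lists, with the list median on the values as deposited, after quantile normalization and after centring. The mitoribosomal median moves from -0.05 to -0.15 and -0.11, and the assembly factor median from 0.12 to -0.0011 and 0.06.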

How the data were processed

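RNA from whole soleus of 6 mice was hybridised to whole-transcript Affymetrix arrays, as the labels' protocols state. The authors deposited a table of values that were read here as log2 signals from their range. No source used here gives the background correction, summarisation, normalization, software or build behind them. Of 72688 features, 65956 had a value on every array, and 30604 of these had 1 symbol in the platform annotation, with 2146 carrying several and 33206 unnamed here. Of the members, 72 of 74 matched RefSeq by Entrez identifier.

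A feature was tested when it exceeded its array's median on at least 3 arrays. Differences were fitted over 33334 features with limma 3.58.1 in R 4.3.3 (lmFit, eBayes with an intensity trend, two-sided), without a block, with Benjamini-Hochberg adjustment across the whole table. The fit was tested on simulated data. Tables and plots used Python 3.11.15, pandas 2.3.3 and matplotlib 3.10.9. Features within 0.01 of the array maximum on all arrays of a group were treated as saturated, and 0 members were.

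Named genes were members past an adjusted p of 0.05, up to 12 per direction whose groups did not overlap, a fixed set of 15 members, and the 2 smallest p of each of 9 other lists. The members, lists and tests were chosen with earlier results of these data known, and the role classes, motifs and neighbour search were added after the values were seen. Groups and replicate numbers came from sample titles, and p-values measure the spread between these mice. The number of arrays limits the precision. Alternatives were other scalings, filters, variance models, array weights, blocks, leaving out each array, and averaging a gene's features, which changed nothing because each member had 1.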

Additional observations from a re-analysis of the deposited data

How the results depend on the processing

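The count of members past limma's adjusted p of 0.05 was 0 under every alternative. At an unadjusted p under 0.05 the count of 2 was 0 after quantile normalization, after median centring and with the replicate block, 1 with no filter and 6 with array weights, and 0 to 5 with each array left out. Replicate numbers were not taken as pairs: deviations of same-numbered arrays correlated at 0.13, -0.20 and 0.21. The 10 members without overlap became 11 to 22 with each array left out, 18 without Control 3 and 22 without cKO 1, as shares of all features rose to 26.7% and 25.4%. The list median of -0.05 was positive with the number range as a block (0.0056), without Control 2 (0.06) and without cKO 3 (0.0036), in a range of -0.15 to 0.06 over all alternatives, and the Mrpl median turned to 0.07 without Control 2 and the Mrps median to 0.05 with that block, 0.03 without Control 2 and 0.06 without cKO 3. Signs of small differences turned. Mrpl12 was 0.0052 with the number range as a block (-0.26 to 0.14 with an array left out). Mrpl11 was 0.0371 with array weights and 0.0654 with that block (-0.18 to 0.16). Mrps18c, Mrps7 and Mrps12 were -0.0600, -0.0677 and -0.0873 after quantile normalization, -0.0366, -0.0412 and -0.00080 after centring and -0.32, -0.0045 and -0.21 with array weights (-0.35 to 0.24, -0.16 to 0.21 and -0.19 to 0.19 with an array left out). Mrps16 ran from -0.41 to 0.18 and Mrps30 from -0.0849 to 0.0319 with an array left out, and Mrps30 was 0.0155 with array weights. ND6 was 0.19 with the number range as a block and 0.23 with quantile normalization added, a setting chosen after seeing the data (-0.80 to 0.10 with an array left out). The cause of these turns was not tested.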
